A study of Homo sapiens with 38 samples.

Results

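Adding FGF2 and Activin A to capacitating naive human embryonic stem cells was examined on a constant background of tankyrase inhibition. The comparison set the 2 libraries titled FAX at day 4 of experiment Ex2 against the 2 titled XAV at day 4 of the same experiment, 4 of the 38 libraries of the series, assigned by their titles. All 4 came from naive Shef6 cells, an established human embryonic stem cell line, that had been kept on a serum coating without feeder cells. The naive medium, also that of the naive libraries of the series, was PXGL. It holds a MEK inhibitor, the tankyrase inhibitor XAV939, a PKC inhibitor and the cytokine LIF. The cells were then plated on Geltrex, a basement membrane matrix, in N2B27 basal medium. Both groups received XAV939, which inhibits the tankyrases TNKS1/2, stabilises AXIN and thereby dampens WNT signalling. The FAX medium held FGF2 and Activin A in addition, so the groups differ by the pair of ligands and by culture, and the share of each ligand cannot be told apart. Medium without XAV939 (N2B27 at day 4, Ex2, 2 libraries) and the commercial media E8 and mTeSR, set against N2B27 at day 4 of experiment Ex1 (2 libraries each), are used below only where they show how FAX and XAV differ.

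FGF2 binds FGF receptors and activates the RAS-MEK-ERK cascade, which induces its own inhibitors, among them the phosphatase DUSP6 and the Sprouty and Spred proteins, as well as the ETS factors ETV4 and ETV5. Activin A binds the type II receptors ACVR2A and ACVR2B, which act through type I receptors such as ACVR1B to activate SMAD2 and SMAD3. With SMAD4 and FOXH1 these induce NODAL, a ligand of the same receptors, and the secreted inhibitors LEFTY1 and LEFTY2, which restrain it. Primed human pluripotent cells depend on both pathways, and cells leaving the naive state make FGF and NODAL ligands themselves.

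Transcripts were counted by 3′ tag RNA-seq, which reads their ends. The FAX libraries held 3958014 and 4290100 counts and the XAV libraries 4957636 and 5024010, within the range of 3038046 to 5612354 over the series. Levels are given as CPM, each library's counts divided by its TMM-adjusted size, and 3 counts, taken as the floor, corresponded to 0.597 to 0.764 CPM in these 4 libraries. Mitochondrial transcripts took 2.38% to 2.87% of counts and ribosomal protein genes 9.01% to 9.39%. The mitochondrial share was higher in both FAX libraries (2.76% and 2.87%) than in both XAV libraries (2.67% and 2.38%), and its part in the results was not tested. Nothing in the labels says that the 2 libraries of a group came from separate cultures, and legends in the study call those of FAX and XAV technical replicates. The p-values therefore measure only the spread between these libraries. The cells carried pluripotency transcripts in both media: POU5F1 stood at 535 and 490 CPM in XAV and at 422 and 456 CPM in FAX. Fibroblast markers summed to 65.0 and 72.3 CPM in XAV and to 76.2 and 65.8 CPM in FAX, with LUM at 0 counts in both groups.

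FAX and XAV cells were close to each other over the whole transcriptome. Of 16674 genes tested, 2 differed at an adjusted p-value under 0.05 (edgeR quasi-likelihood test with Benjamini-Hochberg adjustment in a fit to all 38 libraries), which is 0.012% of the genes. Both were higher in FAX and both were over 2-fold, again 0.012%: LEFTY2, the Nodal inhibitor, and CU638689.4, a transcript with no match in the annotation used here. No gene fell in this fit. At an unadjusted p-value under 0.05, 469 genes were higher (2.81%) and 468 lower (2.81%), and DESeq2 also called 0 lower.

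The precision bounded changes of the genes at higher levels. At a mean of 20 CPM or more, 6947 genes had a median half-width of the 95% interval of 0.31 on the log2 scale, a factor of 1.24. For 6894 of them (99.2%) the whole interval lay within 2-fold in either direction, and 99.6% had an estimate within 1.5-fold. Over these genes the SD of mean FAX minus mean XAV was 0.17 on the log2 scale, against 0.11 from the replicate differences alone. Legends in the study that cover FAX and XAV call their replicates technical, so that differences between cultures and between media cannot be told apart in the first of these values. Each of the 4 libraries correlated best with its own partner (Pearson r over genes 0.993 for FAX and 0.994 for XAV, against 0.989 to 0.991 between them).

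The number of genes called depended on which libraries set the spread. The FAX and XAV pairs were tight, with a chi-square per gene between replicates of 1.80 and 1.87, while the pairs of all 19 groups reached up to 16.5. A fit to the 4 libraries alone put 308 genes higher (2.26% of 13617) and 159 lower (1.17%) at an adjusted p-value under 0.05, with a median standard error of 0.17 in place of 0.21. Of these 467 genes, 426 differed by less than 2-fold. Fits by that narrower spread are named as the 4-library fit below, and 2 libraries per group give its estimate of the spread few degrees of freedom.

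**Figure D1:**
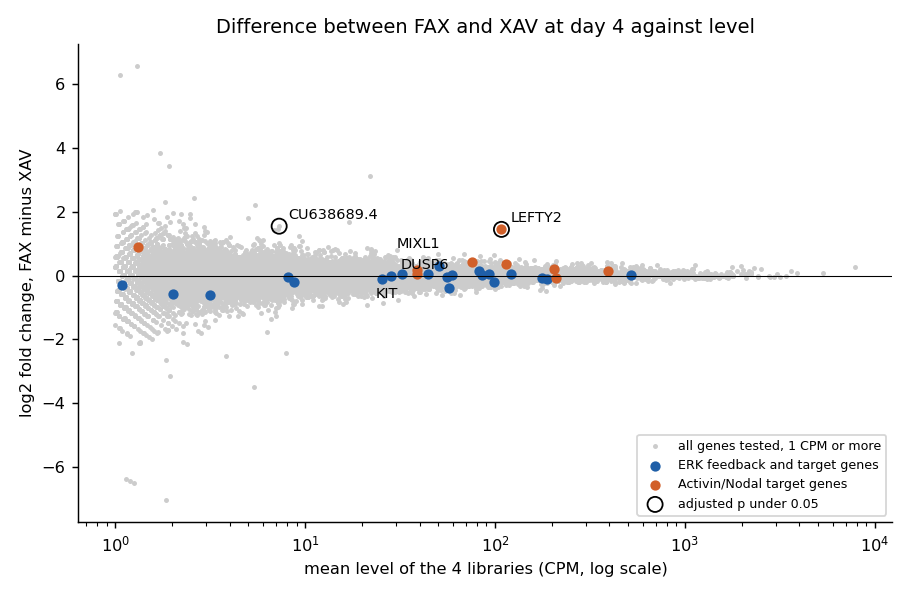
Log2 fold change of FAX minus XAV (y axis) against the mean level of the 4 libraries in CPM (x axis, log scale) for every gene tested with a mean of 1 CPM or more. ERK feedback and target genes (blue) lie around 0, LEFTY2 (1.45 on the log2 scale) stands above the other Activin/Nodal target genes (orange), and rings mark the 2 genes past the test.

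Activin/Nodal target genes held the one annotated gene past the test. LEFTY2, a secreted TGFβ-family protein that blocks Nodal signalling and lies at chr1:225936598-225941383 (GRCh38, GENCODE release 44, minus strand), was at 59.97 and 55.8 CPM in XAV and at 161 and 156 CPM in FAX. Both FAX libraries lay far above both XAV libraries, and the raw counts were 631 and 657 against 298 and 280. LEFTY2 rose 2.73-fold (log2 fold change 1.45, SE 0.22, 95% interval 1.01 to 1.89, edgeR adjusted p = 0.00298). The call was lost when any one of the 4 libraries was left out, with adjusted p-values of 0.0596 without FAX replicate 1, 0.0628 without FAX replicate 2, 0.191 without XAV replicate 1 and 0.241 without XAV replicate 2, while the log2 fold change stayed between 1.40 and 1.51. Over all 12 alternative fits the adjusted p-value ran from 2.46e-33 to 0.241.

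The neighbouring paralogue LEFTY1 (chr1:225886282-225911382) stood at 95.4 and 103 CPM in XAV and at 126 and 130 CPM in FAX. Its groups did not overlap, but the 1.29-fold difference did not pass the test (log2 fold change 0.36, 95% interval 0.01 to 0.72, edgeR adjusted p = 0.878). Reads could be shared between the paralogues: of the 50-base windows in the last 500 bases of annotated LEFTY2 transcripts, 32.2% also occur in LEFTY1, and 13.7% in the reverse direction, so the split of counts between them is uncertain.

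PMEPA1, a transmembrane inhibitor of SMAD signalling, stood at 61.0 and 68.3 CPM in XAV and 87.4 and 85.2 CPM in FAX, with log2 0.42 and an edgeR adjusted p of 0.851.

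NODAL itself was at 194 and 189 CPM in XAV and at 209 and 229 CPM in FAX, a log2 difference of 0.20 with an interval from -0.13 to 0.52. SMAD7, the inhibitory SMAD, differed by 0.17 on the log2 scale, and SKIL, a SMAD corepressor, by 0.13. CER1, another secreted Nodal inhibitor, was counted 0 and 1 times in XAV and 4 times in each FAX library, too few for a fold. TDGF1, the Nodal co-receptor, was the only one of the targets with a negative log2 fold change, of -0.07.

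Over the 10 Activin/Nodal target genes tested, 1 rose and 0 fell at an adjusted p-value under 0.05, and DESeq2 gave the same counts. Unadjusted p-values under 0.05 were reached by 4, all of them higher (LEFTY2, CER1, PMEPA1 and LEFTY1), where 2.81% of all genes were higher at that threshold. Of the 10, 8 were higher in FAX without overlap of the libraries, where 20.6% of all genes were, and 1 was lower without overlap, where 22.7% were. Their median log2 fold change was 0.28, beside -0.01 over all genes tested. In the 4-library fit 3 of the 8 target genes it could test rose, namely LEFTY2, LEFTY1 and PMEPA1, and none fell, where 2.26% of all genes rose and 1.17% fell.

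**Figure D2:**
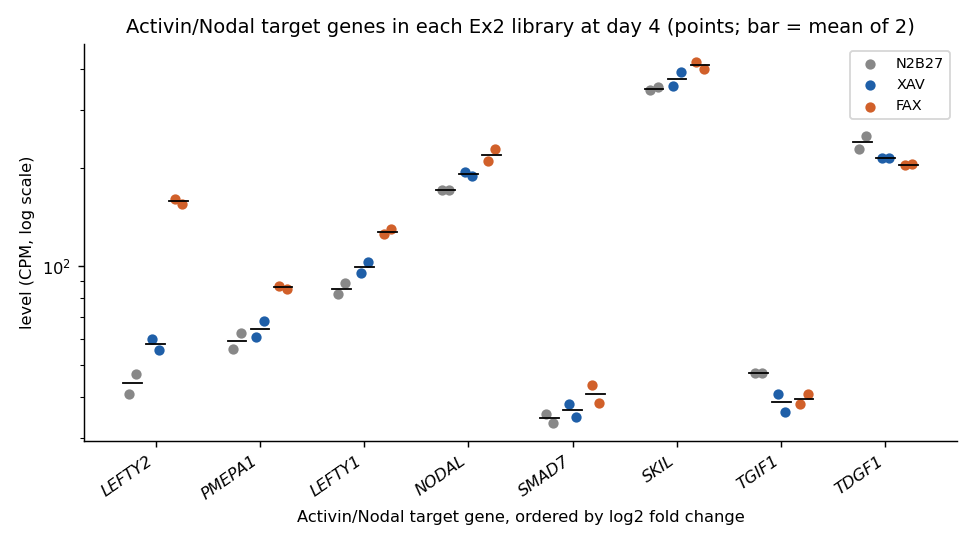
Level in CPM (y axis, log scale) of the Activin/Nodal target genes at 10 CPM or more in the N2B27, XAV and FAX libraries of experiment Ex2 at day 4; points are libraries and bars the mean of 2. The FAX points of LEFTY2 (161 and 156 CPM) stand above the XAV points (59.97 and 55.8 CPM), and those of NODAL lie close together (209 and 229 against 194 and 189 CPM).

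No component that receives the signal passed the test. Of 19 Activin/Nodal ligands, receptors and SMADs tested, 0 passed in edgeR or DESeq2, and 1 had an unadjusted p-value under 0.05. It was lower in FAX, as 2.81% of all genes were at that threshold. The type II receptors ACVR2A and ACVR2B were at 10.3 and 9.56 CPM and at 108 and 106 CPM in XAV, against 12.5 and 12.1 CPM and 119 and 114 CPM in FAX, with log2 differences of 0.31 and 0.13. The exception by unadjusted p was INHBA, which encodes the subunit of Activin A, at 1.81 and 5.18 CPM in XAV and 1.53 and 0.947 CPM in FAX (unadjusted p = 0.00674, adjusted p = 0.814, edgeR), where the XAV libraries differed from each other. All 10 genes of the list at 20 CPM or more, among them SMAD2, SMAD4, FOXH1 and GDF3, had intervals within 2-fold, as had 12 of the 19 in all, so a larger change was not bounded for the other 7.

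No ERK feedback or target gene passed the test. DUSP6, the phosphatase that switches ERK off, was at 28.0 and 29.1 CPM in XAV and at 25.2 and 31.5 CPM in FAX, so that the XAV libraries lay inside the FAX range. The log2 fold change was -0.01 with an interval from -0.38 to 0.37. SPRY4, a Sprouty feedback inhibitor, had the highest log2 fold change of the list, 0.29, which did not pass the test (edgeR adjusted p = 0.937). It was at 47.7 and 43.8 CPM in XAV and 56.8 and 54.9 CPM in FAX.

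The ETS factors ETV4 and ETV5 differed by 0.05 (interval -0.30 to 0.40) and -0.04 (interval -0.31 to 0.22). CCND1, the cyclin that ERK induces in many cells, was the only member with an unadjusted p-value under 0.05, and it was lower in FAX, at 54.5 and 44.7 CPM against 65.4 and 64.3 CPM (log2 -0.39, adjusted p = 0.851, edgeR). Of all genes 2.81% were lower at that threshold. Over the 21 members tested, 0 passed in edgeR or DESeq2, 9 had positive and 12 negative log2 fold changes, and the median was -0.04. Without overlap of the libraries 9 were lower in FAX and 3 higher, where 22.7% and 20.6% of all genes were. All 16 members at 20 CPM or more had an interval within 2-fold. In the 4-library fit CCND1 fell and no member rose.

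FGF ligands and receptors were transcribed in both media. FGF2 was at 307 and 328 CPM in XAV and 337 and 314 CPM in FAX, FGF4 at 241 and 230 against 221 and 223 CPM, and the receptor FGFR1 at 426 and 429 against 394 and 372 CPM. Their log2 differences were 0.04, -0.09 and -0.16. None of the 12 list genes passed the edgeR test, the DESeq2 test or an unadjusted p-value under 0.05, and the 7 at 20 CPM or more had intervals within 2-fold.

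**Figure D3:**
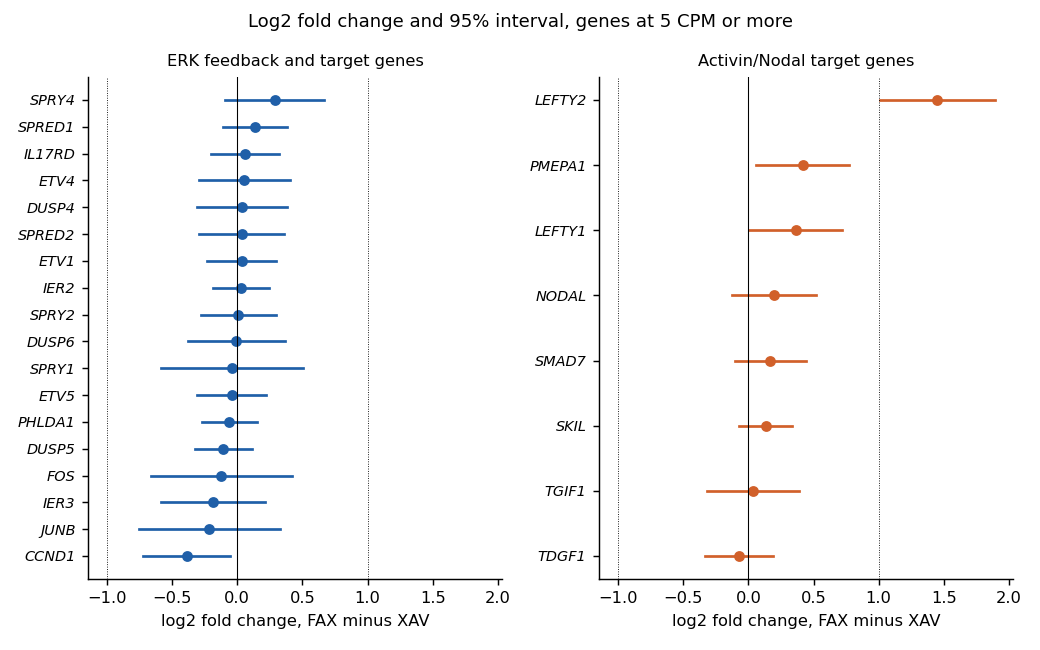
Log2 fold change of FAX minus XAV (x axis, point) with its 95% interval (line) for ERK feedback and target genes (left) and Activin/Nodal target genes (right) at 5 CPM or more; dotted lines mark 2-fold. DUSP6 (-0.01) and ETV5 (-0.04) sit at 0, and LEFTY2 (1.45) is the one gene whose interval lies above the 2-fold line.

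Among lineage markers, primitive streak genes had the highest median, which rests mostly on genes at low levels. Of the 7 streak and mesoderm genes tested, 1 averaged 20 CPM or more and 1 had an interval within 2-fold. MIXL1, a homeobox gene of the streak at chr1:226223618-226227060, was at 20.7 and 21.7 CPM in XAV and at 32.6 and 33.8 CPM in FAX, without overlap. The 1.57-fold difference (log2 0.65, SE 0.21) had an unadjusted p of 0.00457 and an adjusted p of 0.814 in edgeR, and it passed in the 4-library fit. TBXT, the Brachyury gene, was at 9.46 and 10.8 CPM against 13.3 and 15.9 CPM, a log2 difference of 0.53.

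Over the 7 streak and mesoderm genes tested the median was 0.53, with 2 higher at an unadjusted p-value under 0.05 (2.81% of all genes were) and 0 past the adjusted test in edgeR or DESeq2. GATA3, a factor of trophectoderm and amnion, was at 12.3 and 13.1 CPM in XAV and 23.4 and 19.6 CPM in FAX (log2 0.76, unadjusted p = 0.00393, adjusted p = 0.814). PAX6, a neuroectoderm factor, was at 6.84 and 5.58 against 13.0 and 13.3 CPM (log2 1.08, adjusted p = 0.791). Both passed in the 4-library fit. The 9 trophectoderm and amnion, 8 endoderm and hypoblast, 3 neuroectoderm and 8 fibroblast markers tested had medians of 0.45, -0.19, 0.25 and -0.06, with 2, 1, 1 and 0 at an unadjusted p-value under 0.05 (2.81% of all genes in each direction) and 0 past the adjusted test in edgeR or DESeq2. The summed trophectoderm and amnion markers were nevertheless lower in FAX, at 495.7 and 478.2 CPM against 532.1 and 524 CPM in XAV, without overlap. SOX17 was counted at or under the floor in all 4 libraries, and the summed endoderm markers were at 37.0 and 44.8 CPM in XAV and 38.2 and 31.7 CPM in FAX, ranges that overlap.

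No pluripotency marker passed the test between the media. NANOG was at 1415 and 1471 CPM in XAV and 1435 and 1397 CPM in FAX, a log2 difference of -0.03 with SE 0.105. SOX2 differed by -0.05, POU5F1 by -0.22 (interval -0.81 to 0.37), the lowest of the general markers, and KLF17, a naive factor, by 0.11. The formative and primed factors ZIC2, SALL2 and OTX2 differed by -0.04, -0.17 and 0.04.

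The 7 general pluripotency, 14 naive and 16 formative or primed markers had median log2 fold changes of -0.03, -0.05 and 0.07, and 0 of each passed in edgeR or DESeq2. At an unadjusted p-value under 0.05 stood 0 general, 1 naive (lower) and 3 formative or primed markers (2 higher, 1 lower). Of all genes 2.81% were higher and 2.81% lower at that threshold. All 7, 13 and 11 of them at 20 CPM or more had intervals within 2-fold. ALPG, an alkaline phosphatase gene of naive cells with close paralogues among which reads may be divided, had the lowest log2 fold change of the naive markers (-0.52, edgeR adjusted p = 0.791). It was at 91.8 and 94.99 CPM in XAV and 65.2 and 64.6 CPM in FAX. In the 4-library fit POU5F1 (adjusted p = 0.0125), ALPG, DPPA5 and SOX11 fell, and SUSD2, LIN28B and PTPRZ1 rose. SOX11, a neural and primed factor, was at 195 and 208 against 144 and 162 CPM (log2 -0.39, adjusted p = 0.814).

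Few other genes stood apart among those whose higher group averaged 10 CPM or more. CU638689.4 was at 3.62 and 3.78 CPM in XAV and at 9.94 and 11.8 CPM in FAX (log2 1.55, SE 0.28, edgeR adjusted p = 0.033), from 18 and 19 counts against 39 and 50. Its call was lost in DESeq2 and without any one of the 4 libraries, with adjusted p-values from 7.29e-05 to 0.857 over 12 alternative fits. AC068491.4 and AL117348.1, likewise without a match in the annotation used here, were higher by 1.46 and 1.69 on the log2 scale, with adjusted p-values of 0.112 and 0.269 in edgeR. Both rose in the 4-library fit (adjusted p = 0.000252 and 1.82e-10), in the fit to the Ex2 libraries and with no filter, and over all 12 alternatives the adjusted p-values reached 1 for both. QPCT, which encodes glutaminyl-peptide cyclotransferase, was at 15.7 and 14.3 against 28.8 and 26.0 CPM (log2 0.87, adjusted p = 0.484).

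On the higher side the naming rule also took KCNQ1OT1, CCPG1, UACA and CALD1, by their small unadjusted p-values and not by their fold. Their log2 fold changes ran from 0.37 to 0.52, and these genes and QPCT rose in the 4-library fit. KCNQ1OT1 is antisense to KCNQ1, and whether the counting used strand is not given in the sources used here. On the lower side, KIT, the receptor for stem cell factor (chr4:54657267-54740783), was at 28.4 and 26.9 CPM in XAV and at 14.3 and 14.7 CPM in FAX. The 1.91-fold lower level in FAX, without overlap, did not pass (log2 -0.93, SE 0.22, edgeR adjusted p = 0.443), and KIT fell in the 4-library fit. SAP130, MBD3L2, NOMO2, MMP15, PRCP, SPATS2 and AAMDC had log2 fold changes from -0.95 to -0.56 and did not pass, but all of them fell in the 4-library fit (adjusted p-values from 7.05e-05 to 0.00548). MBD3L2 and NOMO2 have near-identical copies, which makes their counts uncertain.

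No WNT target gene passed the test between FAX and XAV. AXIN2 was at 40.5 and 44.01 CPM in XAV and 37.7 and 36.2 CPM in FAX (log2 -0.19), and SP5 at 12.5 and 11.6 against 7.39 and 9.94 CPM (log2 -0.46, adjusted p = 0.941). Of 11 tested, 0 passed, 0 reached an unadjusted p-value under 0.05, and the median was -0.02. Between XAV and N2B27 likewise 0 passed and 0 reached an unadjusted p-value under 0.05, and AXIN2 differed by 0.21 on the log2 scale. Among 14 BMP ligands, targets and antagonists 0 passed in edgeR or DESeq2 and 1 reached an unadjusted p-value under 0.05, on the higher side, where 2.81% of all genes were. It was GREM1, a BMP antagonist, at 15.9 and 14.9 CPM in XAV against 21.7 and 23.0 CPM in FAX (edgeR adjusted p = 0.84).

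No sterol synthesis gene passed the test. Of 19 tested, 15 had positive log2 fold changes and 13 were higher without overlap (20.6% of all genes were), with a median of 0.18. None passed in DESeq2 either, and 4 were higher at an unadjusted p-value under 0.05 (2.81% of all genes were). MSMO1, a sterol methyl oxidase, was at 157 and 176 CPM in XAV and 204 and 210 CPM in FAX (log2 0.31, adjusted p = 0.814), and it rose in the 4-library fit together with HMGCS1. Of 18 glycolysis genes 0 passed, with 13 negative, 11 lower without overlap (22.7% of all genes were) and a median of -0.10, and 0 at an unadjusted p-value under 0.05. In the other lists, which covered YAP/TEAD, p53, ATF4 and low oxygen targets, the cell cycle, matrix, junctions and DNA methylation, 0 genes passed in edgeR or DESeq2, and medians ran from -0.03 to 0.13. In these lists 0 to 2 genes each reached an unadjusted p-value under 0.05, where 2.81% of all genes were higher and 2.81% lower. Matrix genes had 2 higher, low oxygen and cell cycle genes 1 higher each, p53 targets 2 lower, and junction genes 1 in each direction. In the 4-library fit NES of the neuroectoderm list, SLC7A5, MKI67 and TET1 rose, and LDHA of the glycolysis list, FDXR, FN1 and CLDN7 fell.

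Setting both media beside N2B27 without XAV939 places the differences, with the caution that both contrasts share the same N2B27 libraries and that FAX minus XAV shares the XAV libraries. Against N2B27, 223 genes passed in XAV (1.34% of 16674) and 141 in FAX (0.846%). LEFTY2 was at 40.9 and 47.1 CPM in N2B27. Its log2 difference was 0.39 in XAV (adjusted p = 0.665) and 1.84 in FAX (adjusted p = 7.47e-06), so FAX stood above both other media. MIXL1 had 0.57 in XAV (adjusted p = 0.382) and 1.22 in FAX (adjusted p = 0.00325). The median of the 7 streak and mesoderm genes tested was 0.06 in XAV and 0.08 in FAX.

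For other genes FAX lay between XAV and N2B27 of the same experiment. CALD1, which encodes the actin-binding caldesmon, had -1.24 in XAV and -0.82 in FAX. The streak genes TBXT and EOMES had -0.94 and -1.095 in XAV and -0.42 and -0.23 in FAX, none past the test and EOMES from few counts. GATA3 had -1.18 in XAV (edgeR adjusted p = 0.00384) and -0.42 in FAX (edgeR adjusted p = 0.664). KIT was at 12.8 and 10.2 CPM in N2B27 and had 1.27 in XAV (adjusted p = 0.000939) and 0.34 in FAX (adjusted p = 0.81). Of the 19 sterol synthesis genes, 11 fell in XAV with a median of -0.64 and 7 fell in FAX with a median of -0.42, and 0 rose in either, where 1.2% and 0.708% of all genes fell.

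E8 and mTeSR also supply FGF2 and a TGFβ-family ligand, without XAV939 and in a different base, so the effect of FAX over XAV was tested against that of E8 over N2B27 and of mTeSR over N2B27 at day 4, each within its own experiment and with no library in common. E8 differed from N2B27 in 1322 genes (7.93%) and mTeSR in 788 (4.73%). The effects differed in 317 genes (1.9%) between FAX and E8 and in 137 (0.822%) between FAX and mTeSR, at an adjusted p-value under 0.05 for the difference. Leaving out any one of the 4 FAX and XAV libraries brought these counts to 116 to 132 and to 49 to 71, and with no filter on low counts they were 427 (179 higher, 248 lower) and 228 (95 higher, 133 lower), in place of 181 higher and 136 lower and of 68 higher and 69 lower. E8 and mTeSR differ from N2B27 in several components and their libraries come from another experiment than FAX and XAV, so the part of the ligands in these differences cannot be told apart from the rest.

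At day 4 LEFTY2 went in opposite directions. In experiment Ex1 it was at 52.5 and 59.3 CPM in N2B27, at 1.25 and 2.37 CPM in E8 and at 2.59 and 5.53 CPM in mTeSR. On the log2 scale it fell by 4.92 in E8 (adjusted p = 6.62e-11) and fell by 3.77 in mTeSR (adjusted p = 1.43e-08), beside the rise of 1.45 in FAX. The difference was 6.37 (SE 0.43, adjusted p = 1.78e-11) against E8 and 5.22 (SE 0.40, adjusted p = 3.73e-10) against mTeSR, and it passed in all 10 alternative fits that could give it, leaving out single libraries included.

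LEFTY1 fell by 2.29 in E8 and by 1.63 in mTeSR on the log2 scale, and NODAL by 0.85 and 0.71, beside the unpassed 0.36 and 0.20 in FAX. The differences passed for both genes in both comparisons, although that of NODAL from mTeSR (0.91, adjusted p = 0.045) was lost in 6 of 10 alternative fits, with adjusted p-values from 0.000605 to 0.195. Of the 10 Activin/Nodal targets, 5 fell and 1 rose in E8, 4 fell and 0 rose in mTeSR. Of all genes 4.19% fell and 3.74% rose in E8, and 2.29% fell and 2.43% rose in mTeSR. The difference from FAX passed for 4 and 3 of the targets, all with FAX on the higher side, as it did for 1.09% and 0.408% of all genes.

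**Figure D4:**
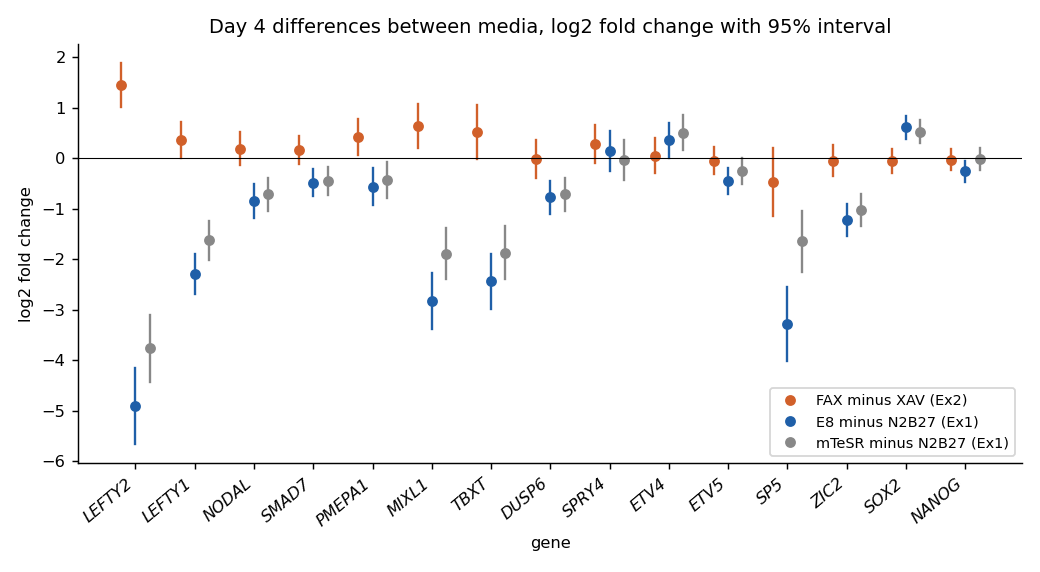
Log2 fold change at day 4 (y axis) with its 95% interval for 15 genes, for FAX minus XAV (orange), E8 minus N2B27 (blue) and mTeSR minus N2B27 (grey). LEFTY2, LEFTY1, MIXL1 and TBXT lie below 0 in E8 and mTeSR and not in FAX.

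Of the 7 streak and mesoderm genes, 3 fell and 0 rose in E8 and likewise in mTeSR (4.19% and 2.29% of all genes fell). The difference from FAX passed for 3 against E8 and 2 against mTeSR, with FAX on the higher side (1.09% and 0.408% of all genes). MIXL1 fell by 2.83 in E8 and by 1.89 in mTeSR, TBXT by 2.44 and 1.87, and the differences from FAX were 3.48 and 2.53 for MIXL1 and 2.97 and 2.40 for TBXT, all past the test. ZIC2 fell by 1.22 and 1.03, beside -0.04 in FAX, and the differences of 1.17 and 0.98 passed, although that from mTeSR was lost in 4 of 10 alternative fits (adjusted p-values from 0.00836 to 0.0753). Of the 21 ERK genes, 1 rose and 2 fell in E8 and 0 rose and 1 fell in mTeSR, where 3.74% and 4.19% and then 2.43% and 2.29% of all genes rose and fell, and their medians were 0.09 and 0.20. DUSP6 fell in both commercial media, by 0.77 (adjusted p = 0.00212) and 0.71 (adjusted p = 0.00728), while the differences from FAX of 0.77 and 0.71 did not pass (adjusted p = 0.103 and 0.182). Of the 21 ERK genes the effect differed between FAX and E8 for CCND1, by -0.85 (adjusted p = 0.036).

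Levels of the reference medium also differed between the experiments. In N2B27 at day 4, DUSP6 was at 70.4 and 70.2 CPM in Ex1 and 25.5 and 21.2 CPM in Ex2, and LEFTY1 at 131 and 129 CPM in Ex1 and 82.3 and 88.7 CPM in Ex2. MIXL1 was at 28.4 and 31.2 CPM in Ex1, near its level in FAX, and at 13.3 and 15.2 CPM in Ex2. KIT was at 23.4 and 23.65 CPM in Ex1, above its level in FAX, and at 12.8 and 10.2 CPM in Ex2. The level of LEFTY2 in FAX, 158 ± 3.73 CPM (SD, n = 2), had the highest mean of the 19 groups, above naive cells on Geltrex in Ex1 at 121 ± 0.385 CPM, and no library of another group reached either FAX library. Naive cells on Geltrex in Ex2, which their titles place at day 0 and their library names at day 4, had 26.3 and 55.3 CPM, a wider gap between replicates than in FAX or XAV. After day 4 the order of the Ex1 media changed. In mTeSR at days 6 and 8 LEFTY2 averaged 42.55 and 50.98 CPM, against 33.2 and 28.07 CPM in N2B27. In E8 it stayed lower, at 14.64 and 18.69 CPM. At day 8 LEFTY1 averaged 177 CPM in E8 and 168 CPM in mTeSR, against 163 CPM in N2B27. Differences at these later days were not tested.

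**Figure D5:**
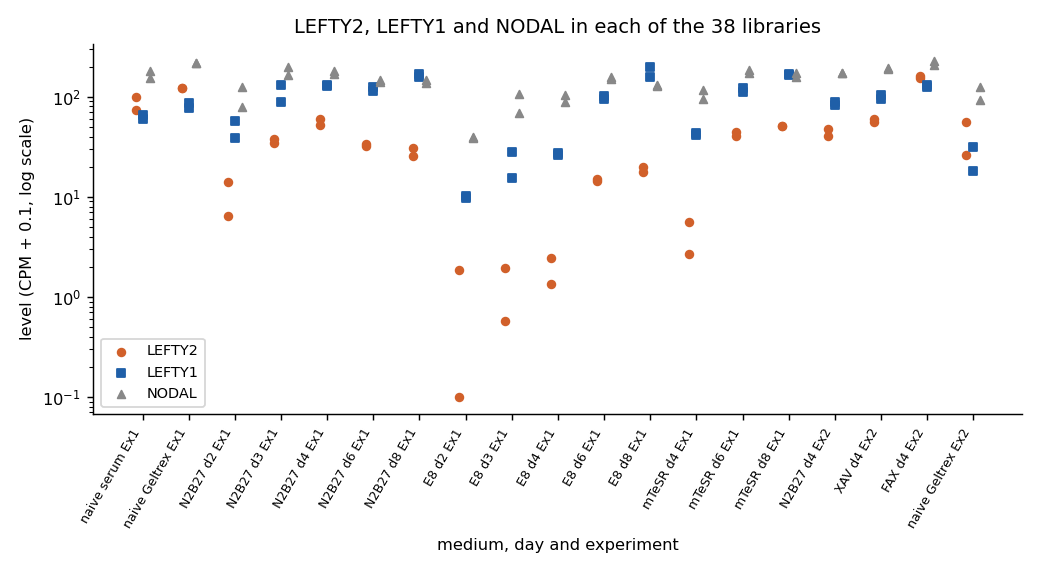
LEFTY2, LEFTY1 and NODAL in each of the 38 libraries, as CPM plus 0.1 on a log scale (y axis), by medium, day and experiment (x axis); each point is 1 library. LEFTY2 is highest in FAX (161 and 156 CPM) and lowest in E8 at days 2 to 4, and NODAL varies over a narrower range.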

How the data were processed

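The series measured 3′ tag RNA-seq in 38 libraries of Shef6 cells, in 19 groups of 2 by medium, day and experiment, grouped by their titles. The authors deposited estimated counts per gene, which their processing notes and methods tie to STAR 2.7.10a, Salmon 1.9.0 and hg38. The deposited table held whole numbers for 57133 genes. How multi-mapped reads were divided is not given in the sources used here.

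The main test was the quasi-likelihood F-test of edgeR 4.0.16 (R 4.3.3) after filterByExpr and TMM. All 19 groups entered 1 fit, so the spread was estimated over 38 libraries, and Benjamini-Hochberg adjustment ran over 16674 genes, which held 99.6% of counts. Genes were said to rise or fall at an adjusted p-value under 0.05, and those with a log2 fold change above 1 in size were also counted apart. Standard errors were derived from the F statistic. Levels are CPM. The floor and intervals cover counting error only where they rest on counts, since reads without molecular identifiers are not independent molecules. With 2 against 2 libraries an exact permutation test cannot go below p = 0.333, so none was run. Replicates of a group differed by more than sampling noise.

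Genes were named by a rule: members of 24 gene lists past the adjusted test; up to 15 genes with the largest rise or fall among those past it, where the higher group averaged 10 CPM or more and the libraries did not overlap, filled up to 10 by the smallest unadjusted p; and 31 fixed signalling and marker genes. INHBA, CCND1, PAX6, SOX11, GREM1, MSMO1, HMGCS1, PMEPA1, SKIL, TDGF1 and those named only for the 4-library fit (DPPA5, SUSD2, LIN28B, PTPRZ1, NES, SLC7A5, MKI67, TET1, LDHA, FDXR, FN1, CLDN7) are list members named after their values were seen. The comparison, lists and members were chosen with earlier results of these data known. Positions are those of GENCODE release 44 by symbol, and 3 named transcripts had no match. Promoter sequences of LEFTY2 and LEFTY1 are not shown. Certain genes that the lists or the rule would take are not reported here, and the list counts leave them out. Alternatives were RLE scaling and plain library totals, other filters, DESeq2 1.42.0, fits to the 4 compared or the 8 Ex2 libraries, the replicate number as a block, and leaving out each of the 4 libraries.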

Additional observations from a re-analysis of the deposited data

Results flagged for a closer look

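The following named genes had an effect of FAX over XAV that differed from the effect of a commercial medium over N2B27 at day 4, by an edgeR test of the difference itself with adjusted p-values under 0.05. Each value is the log2 fold change of FAX minus XAV less that of E8 or mTeSR minus N2B27. The 2 effects were measured in different experiments, and media and experiment cannot be told apart in these differences.

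Against E8, the Nodal inhibitors LEFTY2 and LEFTY1 differed by 6.37 and 2.65 and NODAL by 1.04. The streak genes MIXL1, TBXT and EOMES differed by 3.48, 2.97 and 4.13, EOMES from few counts (1.41 and 0.996 CPM in XAV, 2.29 and 2.13 CPM in FAX, 0 and 0.789 CPM in E8). The WNT target SP5 differed by 2.81, the primed factor ZIC2 by 1.17 and SOX2 by -0.67. QPCT differed by 2.53, AL117348.1 by 6.79, CU638689.4 by 1.496 and AAMDC by -1.48. AL117348.1 was at 0.418 and 0 CPM in E8, under the floor of 3 counts (0.627 and 0.592 CPM), and EOMES averaged under it there, so the fitted sizes for these 2 genes depend on the prior count and show the direction only.

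Against mTeSR, LEFTY2 differed by 5.22, LEFTY1 by 1.99 and NODAL by 0.91. MIXL1 and TBXT differed by 2.53 and 2.40 and ZIC2 by 0.98. QPCT differed by 2.05 and AL117348.1 by 5.13, the latter from 0.471 and 0.921 CPM in mTeSR, about the floor of 0.706 and 0.691 CPM.

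The calls for LEFTY2, LEFTY1, MIXL1, TBXT and QPCT held in all 10 alternative fits of both comparisons. Against E8, NODAL lost the call in 2, SOX2 in 3 and EOMES in 1 of 10 fits, with adjusted p-values up to 0.0627, 0.139 and 0.0524. Against mTeSR, NODAL lost it in 6 and ZIC2 in 4 of 10, up to 0.195 and 0.0753. The calls for CU638689.4 and AAMDC against E8 were lost in 5 of 9 and 6 of 10: leaving out any 1 of the 4 libraries raised the adjusted p-value above 0.05.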

How the results depend on the processing

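The 2 genes that differed between FAX and XAV did so under RLE scaling, plain library totals and the filter of more than 10 counts as well. Counts over 2-fold, and counts at any fold, were 23 and 27 with no filter, 41 and 467 in the fit to the 4 compared libraries, 10 and 52 in the fit to the 8 Ex2 libraries, and 1 and 1 with DESeq2. Leaving out 1 of the 4 libraries gave 0 to 1 for both, with more genes past the filter and the lone library assumed to vary like the other groups. The replicate number is shared by label only (correlation of replicate differences 0.01 between FAX and XAV), and with it as a block the counts were 2 and 2, and 320 and 122 for the differences from E8 and mTeSR.

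Differences of effect from E8 numbered 317 (181 higher, 136 lower), 360 with plain library totals (241 higher, 119 lower), 427 with no filter (179 higher, 248 lower), and 116 to 132 without single libraries. Those from mTeSR numbered 137, with 228 for no filter and 49 to 71 without single libraries. They could not be had in the fits to 4 or 8 libraries, which hold no E8 or mTeSR. The cause of the other shifts was not tested.

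Of 765 pairs of a named gene result and an alternative, 680 kept direction and side of the threshold, 35 passed in the alternative alone, 36 lost the threshold and 14 changed sign. All sign changes were of small values. DUSP6 went to 0.0034 (RLE), 0.0058 (more than 10 counts), 0.0025 (4 libraries), 0.0015 (8 libraries), 0.0031 (DESeq2), and ran from -0.17 to 0.14 without single libraries. Without single libraries FGF2 ran from -0.015 to 0.091, FGFR3 from -0.227 to 0.059, ETV4 from -0.046 to 0.168, NANOG from -0.052 to 0.0049, SOX2 from -0.129 to 0.033 and OTX2 from -0.049 to 0.129.

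Depth limits the low genes most: 3 counts were up to 0.764 CPM in these libraries.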
